A study of Mus musculus with 6 samples.

Results

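The interleukin-1 (IL-1) family is described here by 10 genes, followed through the colon of mice with and without a knockout of Islr. They were 4 agonist ligands (Il1a, Il1b, Il18 and Il33), the antagonist Il1rn, and 5 receptor genes (Il1r1, Il1rap, Il1r2, Il1rl1 and Il18r1). Every probe whose RefSeq accession mapped to one of these genes was taken, without regard to its signal. The array held 19 such probes among 56605 probes in all, and the 10 genes stood among 23462 genes that could be named. Il1a, Il18 and Il1r1 had 1 probe each, Il1rl1 and Il1rap had 3 each, and the other 5 genes had 2 each.

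Total RNA from the colon of 6 male mice, 3 controls and 3 Islr knockouts, was hybridised to 1 single-colour Agilent oligonucleotide array per mouse. Islr encodes a secreted protein with leucine-rich repeats that is made by stromal cells. By the source label every animal, controls included, drank 3.5% dextran sulfate sodium (DSS) over 5 days and then recovered over 1 day, while the separate treatment field states no treatment. DSS is a polymer that injures the colonic epithelium and sets off an acute colitis. Strain, age, the allele and any promoter or Cre driver behind the knockout are not given in the labels, and no animals without DSS were analysed here. The design text speaks of flow separation without naming a cell population, and the defining markers of epithelium (Epcam, Cdh1), fibroblasts (Col1a1, Pdgfra), endothelium (Pecam1) and smooth muscle (Myh11) were all well above background on all 6 arrays. In such mixed tissue, fewer cells of a type and less RNA per cell cannot be told apart.

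IL-1 family cytokines are early alarm signals of injured or infected tissue. IL-1α and IL-1β bind IL1R1, which recruits the accessory protein IL1RAP and signals through MYD88 and IRAK kinases to NF-κB, whereas IL-1RA competes for the same receptor without signalling and IL1R2 captures IL-1 as a decoy. IL-33 uses ST2, the product of Il1rl1, together with IL1RAP, and IL-18 uses IL18R1 with IL18RAP. In the colon, IL-1β comes mainly from myeloid cells, IL-18 largely from epithelium and IL-33 from stromal and other nuclear stores, and these cytokines take part in both the inflammation and the repair that follow epithelial injury.

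Signal is given throughout as the log2 of the spot's intensity relative to the 75th percentile of its array, so 0 is that percentile and a step of 1 is a 2-fold difference, and levels of different probes are not ranked against each other. Where 1 probe is subtracted from another, only the shift of that difference between the groups is read. That percentile was an intensity of 6353 to 7110.5 on the control arrays and 4910.5 to 5820.0 on the knockout arrays. All arrays lay on 1 slide, with controls in one row and knockouts in the other, so position and genotype cannot be told apart. Spots that the scanner software marked as outliers made up 3.26% to 16.0% of an array and 10.7% to 56.8% of its brightest 10%. They were left out of the fit, and values on such spots are named as outlier spots below. Islr itself fell by 2.44 (SE 0.21, limma, adjusted p = 0.0171), from 1.57, 1.24 and 1.21 on the control arrays to -1.40, -0.93 and -1.31 on the knockout arrays.

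The ST2 receptor Il1rl1 was the member that fell past the threshold, an adjusted p under 0.05. Of the 19 probes, 14 from 9 genes could be tested, and 2, both of Il1rl1 and both lower, were called by limma with Benjamini-Hochberg adjustment over all 35351 tested probes. That is 14.3% of the members' probes, against 3.97% of all tested probes called in either direction and 2.42% called lower. Both the count and the share include A_55_P2027731, whose knockout spots all failed the background criterion. It was admitted by its control signal, so its call adds nothing to the bound given below. This leaves A_55_P2027737 as the informative call, and the 14.3% is not read as an excess over the 3.97%. At an unadjusted p under 0.05 stood 11 of the 14 probes, from 8 genes, or 78.6%, against 26.8% of all tested probes. A_55_P2027731 is among these 11 as well. The 14 probes had a median change of -1.88, or -1.53 with the Il1rl1 probe that has only a bound set at that bound, with 11 lower and 3 higher, while the median over all tested probes was 0.00.

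Another 3 probes could not be tested only because their bright spots were marked as outliers. With outlier spots kept, 17 probes of all 10 genes were tested, and 5 probes of 4 genes (Il18, Il1r1, Il1r2 and Il1rl1) were called, against 4.85% of all tested probes. The 5 again include A_55_P2027731. The 3 control and 3 knockout values did not overlap at 15 of these 17 probes, or 88.2%, against 34.9% of all probes tested this way. Of the 15, 12 probes of 7 genes were lower in the knockout, by 0.83 to 4.36, and 3 probes of 2 genes were higher, by 0.73 to 1.94. The genes on the higher side were the antagonist Il1rn and the ligand Il18, and the probes whose groups overlapped belonged to Il1rap and Il18r1.

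**Figure D1:**
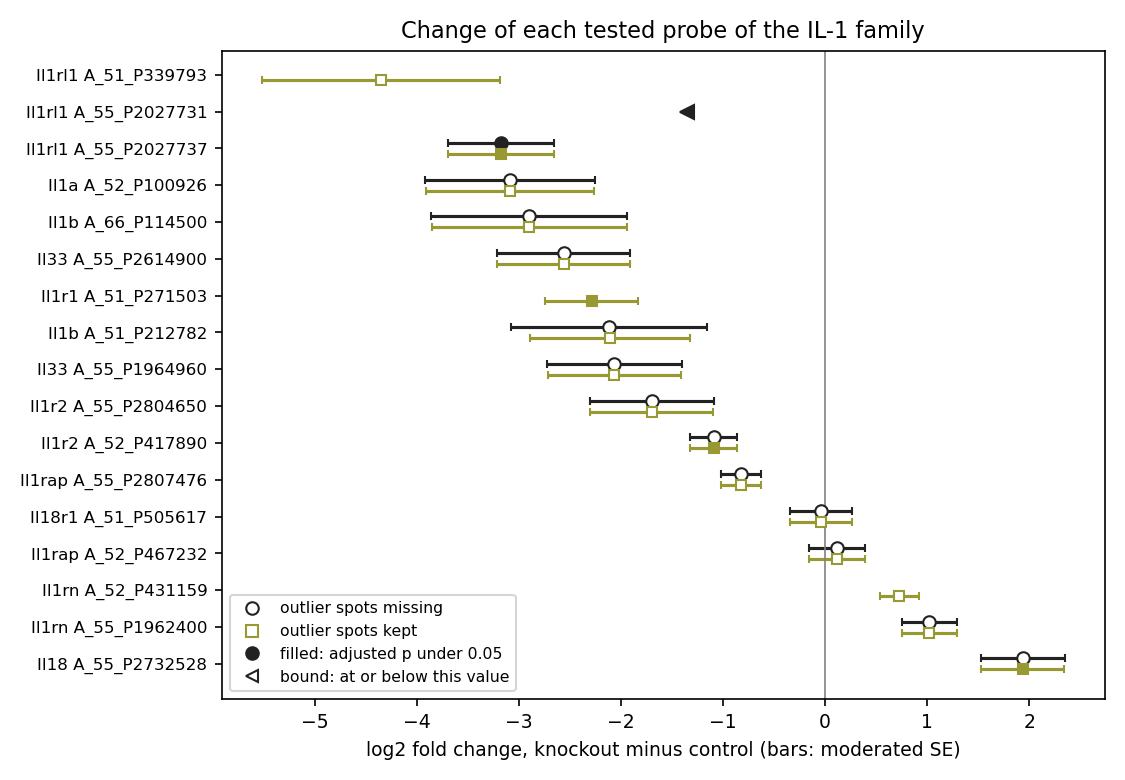
Change of each tested probe of the 10 genes, as the log2 fold change of knockout minus control with its moderated standard error, with outlier spots missing (circles) and kept (squares); filled symbols have an adjusted p under 0.05, and the triangle is a probe not well above background on any knockout array, drawn at its bound. Most probes lie to the left of 0, the called Il1rl1 probes at -3.18 and at or below -1.35, while Il18 at 1.94 and the Il1rn probes lie to the right.

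The agonists of the IL-1 receptor were lower on average and scattered widely between the knockout arrays. Il1b, the main secreted IL-1 of activated myeloid cells, read 1.28, 1.31 and 1.35 on the control arrays and -3.83, -1.34 and 0.40 on the knockout arrays at probe A_66_P114500. The controls lay within a narrow band and every knockout lay below it, knockout 1 farthest. The means were 1.31 ± 0.032 (SD, n = 3) and -1.59 ± 2.13 (SD, n = 3), a difference of -2.90 (SE 0.96) or 7.47-fold that missed the threshold (limma, adjusted p = 0.117). Without knockout 1 it was -1.78 (limma, adjusted p = 0.138).

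The brighter Il1b probe, A_51_P212782, gave the same order of arrays. It read 2.15 (an outlier spot), 2.11 and 2.25 in controls and -1.81, 0.36 and 1.63 in knockouts. Its difference was -2.12 (SE 0.96, limma, adjusted p = 0.226), and -1.18 (adjusted p = 0.243) without knockout 1.

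Il1a encodes IL-1α, which is active in its precursor form and is released by dying cells. Probe A_52_P100926 read -3.09, -2.63 and -2.18 in controls and -7.70, -5.21 and -4.26 in knockouts, and the lowest of these, knockout 1, was not well above background. The groups did not overlap. The means were -2.63 ± 0.46 and -5.73 ± 1.78 (SD, n = 3 each), a difference of -3.09 (SE 0.83) or 8.52-fold with an adjusted p of 0.0799 (limma). Without knockout 1 it was -2.10 (adjusted p = 0.0761).

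Myeloid marker genes were split. Of 10 tested neutrophil markers, limma called 6 lower (S100a8 by -3.92, S100a9 by -3.73, Retnlg by -4.47, Mmp9 by -2.86, Cxcr2 by -1.93 and Camp by -1.20) and 1 higher (Ltf, by 3.66), against 3.97% of all tested probes. Here and for the lists below, sums are over all genes tested with outlier spots kept, in units of the array's 75th percentile. The neutrophil sum, over 11 genes, was 31.6 to 34.8 in controls and 27.1 to 29.5 in knockouts. It was carried by Ly6g, Csf3r and Trem1. With outlier spots kept these were higher by 0.78, 0.17 and 0.18, none called, and Ly6g could be tested only at that setting. Mmp9 was well above background on 2 of the 3 knockout arrays. Of 10 tested monocyte and macrophage markers, 9 were lower and none was called, with sums of 20.6 to 31.2 in controls and 14.0 to 18.8 in knockout mice. The part of these cells in the Il1b and Il1a values was not tested.

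Il33, the nuclear alarmin that signals through ST2, was lower at both of its probes without passing the threshold. The brighter probe, A_55_P1964960, read 0.26, 1.09 and 1.18 in controls and -2.71, -0.07 and -0.89 in knockouts. Probe A_55_P2614900 read -1.55, -0.26 and -0.38 in controls and -4.59, -2.13 and -3.16 in knockouts. At both probes control 1 was the lowest control, knockout 1 the lowest knockout, and the groups did not overlap.

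The difference was -2.07 (SE 0.66, adjusted p = 0.109) at the brighter Il33 probe and -2.56 (SE 0.65, adjusted p = 0.0721) at the other (limma). These are 4.19-fold and 5.92-fold. Without knockout 1 they were -1.32 (adjusted p = 0.145) and -1.92 (adjusted p = 0.125). The second probe passed the threshold without knockout 2, at -3.15 (adjusted p = 0.0466). Of the stromal marker lists, fibroblast genes were lower at 7 of 7 tested. Pdgfrb was called (-1.17), against 3.97% of all tested probes called. Fibroblast sums, over 8 genes with outlier spots kept, were 40.4 to 47.8 in controls and 24.4 to 34.0 in knockouts. Endothelial genes were also lower at 7 of 7, with none called and sums of 13.3 to 14.5 against 4.20 to 9.32. Smooth muscle genes went the other way, being higher at 6 of 6 tested with none called, with sums of 48.1 to 59.2 in controls and 65.2 to 75.8 in knockouts. Their part in the Il33 values was not tested.

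Il18 was the agonist that stood on the other side. It encodes IL-18, which caspase-1 matures and which epithelial cells make constitutively. Probe A_55_P2732528 read 1.10, -0.38 and 0.41 in controls and 2.75, 1.86 and 2.34 in knockout mice. The groups did not overlap, and knockout 1, the lowest array for the other agonists, was the highest here. The means were 0.38 ± 0.74 and 2.32 ± 0.45 (SD, n = 3 each), a difference of 1.94 (SE 0.41) or 3.83-fold.

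The Il18 difference lay at the threshold. Its adjusted p was 0.0529 with outlier spots missing and 0.0494 with them kept (limma). Il18's own spots carried no outlier mark, so its fold change was the same in both. Without control 1, the array with the highest control value, the difference was 2.30 (adjusted p = 0.0370). Leaving out any other single array gave differences of 1.56 to 2.17, none past the threshold. Their adjusted p-values were 0.0575 to 0.127 (limma, outlier spots missing). Epithelial markers were higher at 10 of 10 tested genes with none called, and their sums were 23.6 to 78.7 in controls and 93.3 to 122.8 in knockouts. Control 1 had the highest sum among the controls and knockout 1 the highest of all, as for Il18. The part of epithelial RNA in the Il18 value was not tested.

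Il1rn encodes IL-1RA, the receptor antagonist. Probe A_55_P1962400 read -2.32, -2.90 and -2.68 in controls and -2.11, -1.46 and -1.26 in knockout mice. The groups did not overlap, although control 1 and knockout 1 lay close together. The means were -2.63 ± 0.29 and -1.61 ± 0.45 (SD, n = 3 each), and the difference of 1.02 (SE 0.27, 2.03-fold) missed the threshold (limma, adjusted p = 0.0783). The brighter probe, A_52_P431159, read 0.95, 0.87 and 1.03 in controls and 1.42, 1.60 and 2.02 in knockouts. Only control 3 and knockout 3 were free of outlier marks there, and with all spots kept the difference was 0.73 (SE 0.19, adjusted p = 0.0748).

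Antagonist and ligand were also read as a difference within each array, where scaling cancels. The log2 signal of Il1rn (A_55_P1962400) minus that of Il1b (A_66_P114500) was -3.60, -4.21 and -4.03 in controls and 1.72, -0.11 and -1.66 in knockouts. Every knockout lay above every control, and knockout 1 was the farthest. The difference shifted by 3.92, from -3.94 ± 0.31 to -0.02 ± 1.69 (SD, n = 3 each), or 15.2-fold. The other Il1rn probe gave a shift of 3.63, and Il18 minus Il1b shifted by 4.84. Each probe of these pairs already separated the groups, in opposite directions, so the shifts are a description and were given no test.

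**Figure D2:**
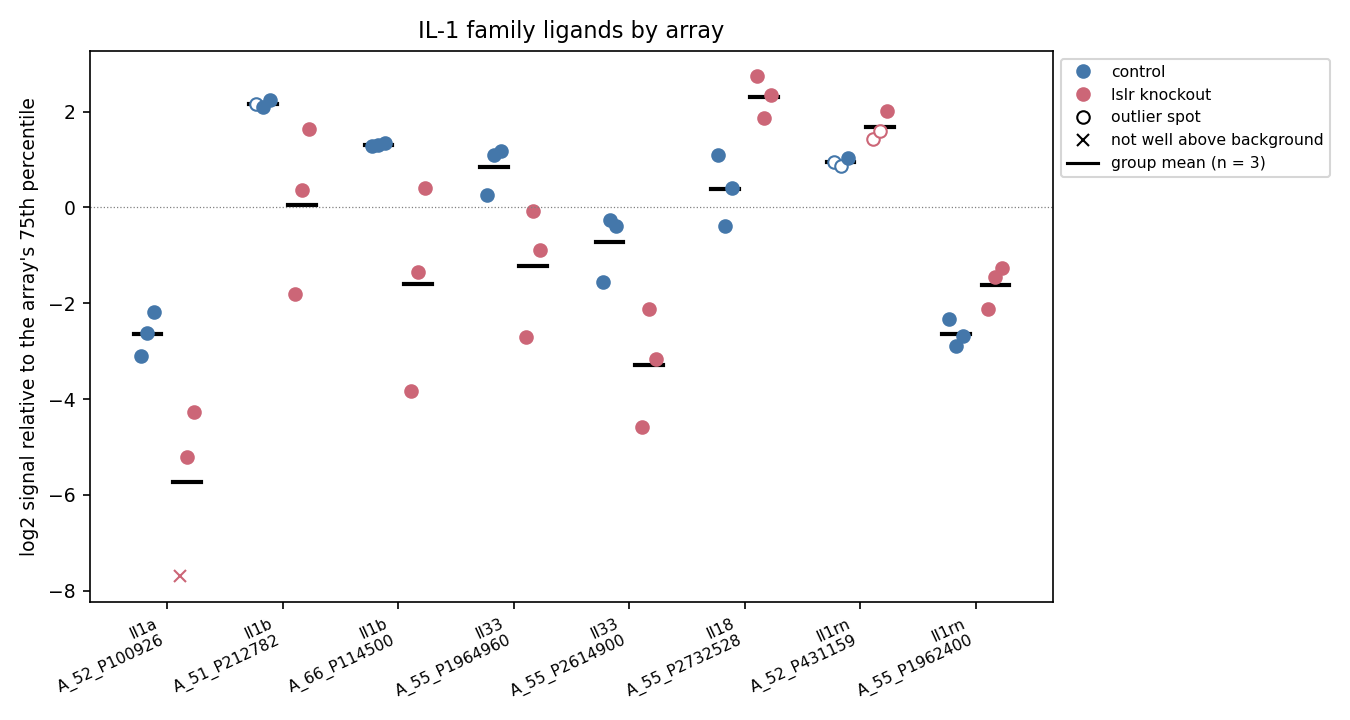
Log2 signal, with the array's 75th percentile at 0, for each ligand probe on the 3 control (blue) and 3 Islr knockout (red) arrays, with bars at the mean of all 3 spots; open circles are outlier spots and a cross is a spot not well above background. Il1a, Il1b and Il33 lie lower in the knockout with 1 array far below the others, while Il18 and Il1rn lie higher.

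The sequences upstream of 4 ligand genes are shown because they make up the contrast between the lower agonists Il1b and Il33 and the higher Il1rn and Il18. They come from RefSeq promoter windows on build GRCm38.p6, 5′ to 3′ on the gene's strand, cut to the bases that lie outside the annotated gene. Il1b lies at chr2:129371165-129371389 on the minus strand, Il33 at chr19:29924863-29925112, Il1rn at chr2:24336610-24336859 and Il18 at chr9:50554450-50554699, the last 3 on the plus strand. Capitals mark the letters TATAAA or, in Il1rn, an AP-1 motif (TGANTCA), either of them read on both strands.
Il1b: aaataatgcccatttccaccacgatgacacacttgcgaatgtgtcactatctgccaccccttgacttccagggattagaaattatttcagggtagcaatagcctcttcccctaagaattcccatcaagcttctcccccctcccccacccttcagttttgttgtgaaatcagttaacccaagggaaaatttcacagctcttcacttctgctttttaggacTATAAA
Il33: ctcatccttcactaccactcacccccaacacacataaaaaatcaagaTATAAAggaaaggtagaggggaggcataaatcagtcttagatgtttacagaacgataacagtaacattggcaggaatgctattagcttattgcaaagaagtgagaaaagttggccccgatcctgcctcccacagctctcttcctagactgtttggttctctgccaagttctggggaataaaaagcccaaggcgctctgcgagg
Il1rn: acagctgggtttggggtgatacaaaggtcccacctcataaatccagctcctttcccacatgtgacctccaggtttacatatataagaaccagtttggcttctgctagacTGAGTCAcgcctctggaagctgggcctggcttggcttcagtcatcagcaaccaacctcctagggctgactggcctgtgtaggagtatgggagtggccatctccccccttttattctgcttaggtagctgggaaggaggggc
Il18: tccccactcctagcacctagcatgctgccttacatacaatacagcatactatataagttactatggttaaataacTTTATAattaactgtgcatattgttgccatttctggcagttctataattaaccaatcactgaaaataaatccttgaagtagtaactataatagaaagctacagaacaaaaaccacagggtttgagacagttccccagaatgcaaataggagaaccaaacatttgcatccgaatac
The TATAAA letters began 31 bases before the start site in Il1b, where a TATA box is usually found, but 203 bases before it in Il33. In Il18 they were on the reverse strand, 175 bases before the start. TATAAA was present in the 250 upstream bases of 12.4% of 32851 promoters and the AP-1 motif in 6.75%. The NF-κB consensus, present in 7.25% of promoters, was found in none of the 4 windows. These matches describe letters and no binding was measured.

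The signalling receptor Il1r1, through which both IL-1 ligands act, had no usable knockout spot once outlier spots were removed. On all spots, probe A_51_P271503 read 1.40 (an outlier spot), 1.68 and 1.61 in controls and -1.84, -0.15 and -0.18 in knockouts, where all 3 were outlier spots. The groups lay well apart, with knockout 1 the lowest. With outlier spots kept, the means were 1.56 ± 0.14 and -0.73 ± 0.97 (SD, n = 3 each), and Il1r1 fell by 2.29 (SE 0.46, 4.89-fold, limma, adjusted p = 0.0441). This call ended when any array other than knockout 1 was left out, with adjusted p-values up to 0.122 (without control 2). It was -1.73 (adjusted p = 0.0328) without knockout 1.

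Il1rap, the shared co-receptor of IL-1 and IL-33, differed between its probes. Probe A_55_P2807476 read -0.01, -0.19 and -0.40 in controls and -0.74, -1.23 and -1.12 in knockouts, a difference of -0.83 (SE 0.19, 1.78-fold, limma, adjusted p = 0.0633) without overlap. Probe A_52_P467232, assigned to another RefSeq transcript of the gene, read -3.52, -3.78 and -4.51 in controls and -3.67, -4.01 and -3.78 in knockouts. Those groups overlapped, and the difference of 0.11 (SE 0.28, adjusted p = 0.820) turned to -0.17 without control 3.

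Within each array, the first Il1rap probe minus the second had a mean of 3.73 ± 0.33 (SD, n = 3) among controls and 2.79 ± 0.13 (SD, n = 3) among knockouts. That shift of -0.94 was free of overlap (exact permutation test, two-sided p = 0.1, the smallest that 3 against 3 arrays allow). The dimmest Il1rap probe, A_52_P207374, was well above background on 1 array, control 1, and gave no tested difference.

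Il1r2, the decoy receptor of neutrophils, macrophages and epithelium, was lower at both probes. Probe A_55_P2804650 read 1.17, 1.19 and 0.98 in controls and -2.11, 0.04 and 0.29 in knockouts. Probe A_52_P417890 read -1.36, -1.17 and -1.88 in controls and -2.78, -2.53 and -2.38 in knockouts. Neither overlapped, and at the brighter probe knockout 1 lay far below the rest, as it did for Il1b.

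The Il1r2 difference was -1.70 (SE 0.61, 3.25-fold, adjusted p = 0.137; -0.94 without knockout 1) at the brighter probe and -1.09 (SE 0.23, 2.13-fold, adjusted p = 0.0526) at the dimmer (limma). The second passed with outlier spots kept (adjusted p = 0.0492), although its own spots had no outlier mark. It did not pass once any 1 array was left out, with adjusted p-values of 0.0661 to 0.142 at that setting, the highest without control 2.

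Il1rl1 encodes ST2, as a membrane receptor for IL-33 and, from a shorter transcript, as a secreted decoy that binds IL-33. Probe A_55_P2027737, assigned to the membrane receptor's transcript, read -0.77, 0.53 and 0.56 in controls and -4.02, -2.64 and -2.55 in knockout mice. The groups were far apart, and array 1 was the lowest of each. The means were 0.11 ± 0.76 and -3.07 ± 0.83 (SD, n = 3 each), and the signal fell by 3.18 (SE 0.52, 9.05-fold, limma, adjusted p = 0.0358).

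The call at this Il1rl1 probe was lost without control 2 (adjusted p = 0.0971), control 3 (0.0964), knockout 1 (0.0661) or knockout 3 (0.0794). It was also lost when dim probes were not filtered out (0.0562). The difference itself stayed between -3.61 and -2.70 when single arrays were left out.

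Probe A_55_P2027731 of Il1rl1 read -4.95, -3.85 and -3.66 in controls. On the knockout arrays it read -7.66, -7.88 and -7.87, none of them well above background. It therefore has only a bound, at least 2.55-fold lower in the knockout, the control mean being divided by the mean, over the knockout arrays, of the dimmest signal that still counted as well above background there. The fit called it lower (limma, adjusted p = 0.0159), and the call was lost without knockout 3 (adjusted p = 0.0530). The probe entered the test through its control signal alone, and the fit used knockout values that were not well above background. The call therefore adds nothing to the bound.

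The brightest Il1rl1 probe, A_51_P339793, is assigned to the transcript of the secreted form. It read 1.18 (an outlier spot), 2.21 and 2.25 in controls. In knockouts it read -5.40, which was not well above background, and -1.07 and -0.96 on outlier spots. With outlier spots kept the difference was -4.36 (SE 1.17, adjusted p = 0.0758, limma), and it passed only without knockout 1 (-2.89, adjusted p = 0.0486).

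The secreted-form probe minus the membrane-form probe was 1.94, 1.68 and 1.69 on the control arrays and 1.57 and 1.59 on the arrays of knockouts 2 and 3. On knockout 1 the secreted-form spot was not well above background, so no difference between the groups is given. Without probe sequences, how far each probe separates the forms was not tested. Mast cells are a main carrier of membrane ST2. Of 4 tested mast cell markers, Hdc was called lower (-2.40, limma, adjusted p = 0.0441), against 3.97% of all tested probes called. Mcpt4 differed by -1.25, whereas Tpsb2 (0.80) and Cma1 (0.19) were higher, none of them called. Sums over 5 genes with outlier spots kept, Kit included, were 2.01 to 2.56 in controls and 1.50 to 2.05 in knockouts. Cpa3, Fcer1a and Ms4a2, which define the cell, could not be tested, and the part of mast cells in the Il1rl1 values was not tested.

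Il18r1, the ligand-binding chain of the IL-18 receptor, did not separate the groups. Probe A_51_P505617 read -2.18, -1.59 and -2.65 in controls and -2.53, -1.91 and -2.11 in knockout mice. The ranges overlapped, and the difference of -0.04 (SE 0.31, limma, adjusted p = 0.947) took either sign: it was 0.02 after quantile normalisation and 0.24 without control 2. The dimmer probe, A_55_P2092492, was well above background only on control 2 and was not tested. Markers of T cells and innate lymphoid cells, which carry this receptor, were lower at 5 and higher at 5 of 10 tested genes with none called, and their sums were 7.18 to 9.48 in controls and 8.87 to 10.8 in knockouts.

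**Figure D3:**
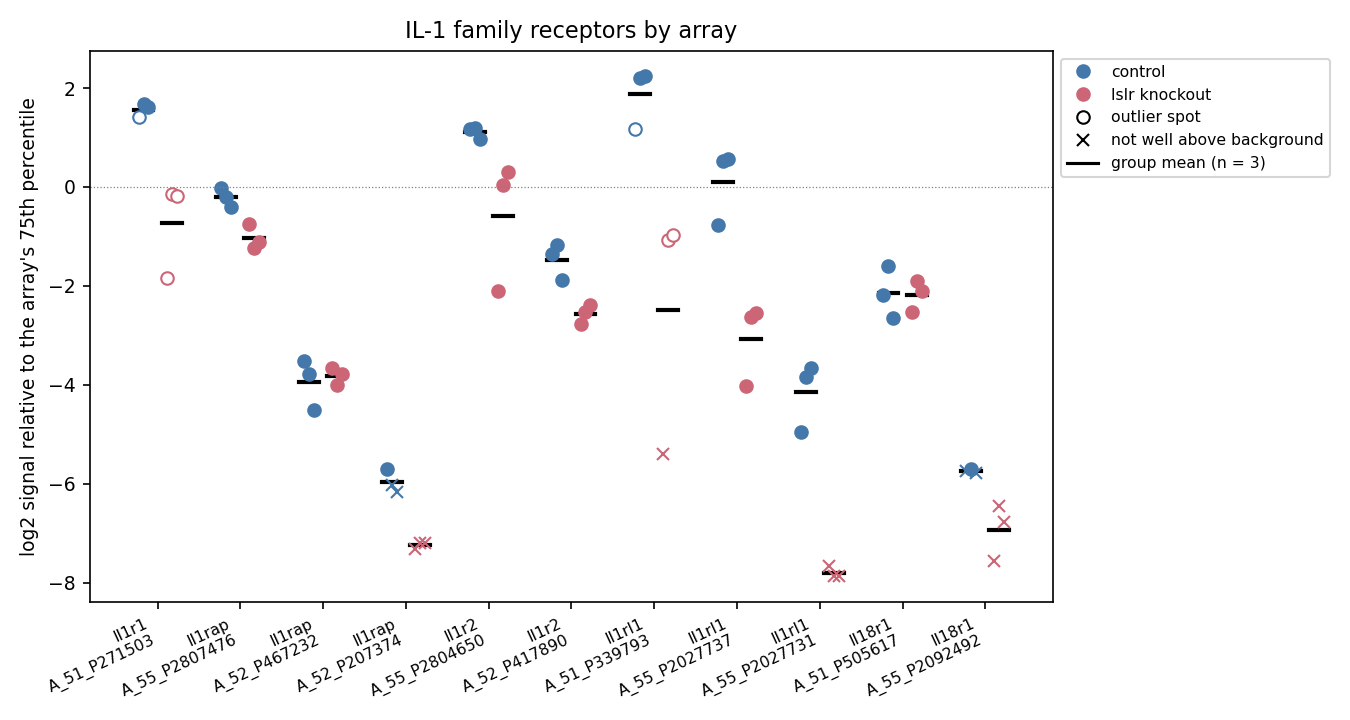
Log2 signal, with the array's 75th percentile at 0, for each receptor probe on the 3 control (blue) and 3 Islr knockout (red) arrays, with bars at the mean of all 3 spots; open circles are outlier spots and crosses are spots not well above background. Il1r1, Il1r2 and all 3 Il1rl1 probes lie lower in the knockout, while Il18r1 A_51_P505617 and Il1rap A_52_P467232 overlap.

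The receptor genes followed here, except Il1rap, lie in a cluster on mouse chromosome 1. The cluster's order is Il1r2, Il1r1, Il1rl2, Il1rl1, Il18r1 and Il18rap, with Map4k4 before it. Neighbours within this cluster differed. Il18rap, the signalling chain of the IL-18 receptor, read -4.32, -4.31 and -4.72 in controls and -7.52, -6.46 and -7.10 in knockouts, none of the latter well above background. It was at least 2.07-fold lower, while its neighbour and partner chain Il18r1 differed by -0.04. The limma call (adjusted p = 0.0218) used those knockout values, and Il18rap entered the test through its control signal alone. Il1rl2, the IL-36 receptor, was likewise not well above background in any knockout, at least 1.22-fold lower, and was not called (adjusted p = 0.177). Map4k4, a kinase outside the family, fell by 1.42 (limma, adjusted p = 0.0286) with outlier spots missing and differed by -0.93 (adjusted p = 0.0749) at the brighter probe that could be tested with them kept. On chromosome 2, Ckap2l, beside Il1a and Il1b, differed by -1.33 (adjusted p = 0.0922).

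**Figure D4:**
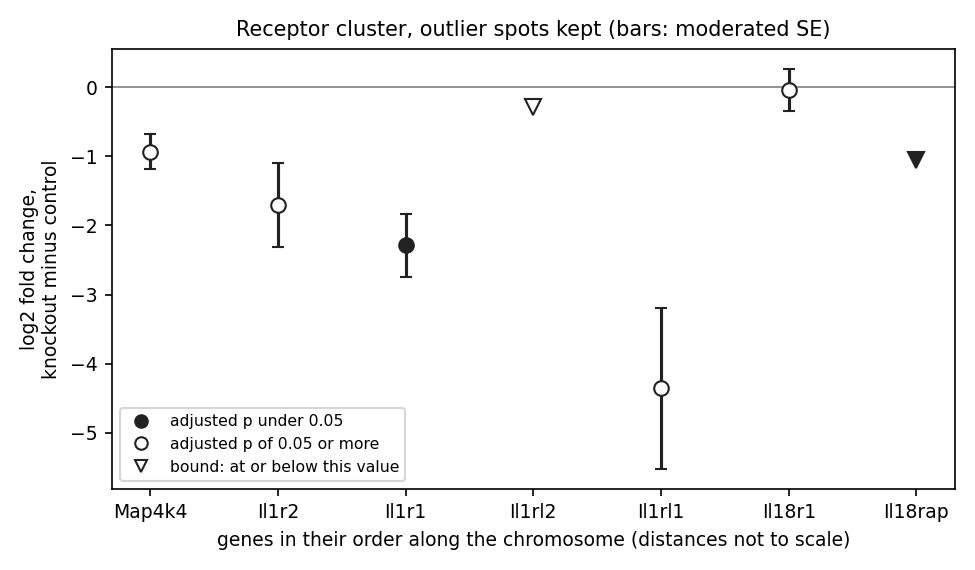
Log2 fold change, knockout minus control, with its moderated standard error, for the genes of the receptor cluster in their order along the chromosome, each by its brightest tested probe with outlier spots kept; filled symbols have an adjusted p under 0.05, and triangles are genes not well above background on any knockout array, drawn at their bound. Il1r1 at -2.29 and Il18rap, at or below -1.05, are filled, and Il18r1 at -0.04 lies between lower neighbours.

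One array set much of the spread. Knockout 1 was the lowest array at 10 of the 12 lower probes that did not overlap, knockout 2 at the other 2, and knockout 3 at none. This was also usual beyond the family: knockout 1 was lowest at 66.8% of all 7053 such probes. The knockouts' SD exceeded the controls' at 10 of the 12, against 69.8% of all such probes.

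The likeness of other members to Il1b (A_66_P114500) over the 6 arrays followed the same split in sign, with some values in between. Pearson's r was 0.974 for Il1r2 (A_55_P2804650), 0.879 for Il33 (A_55_P1964960), 0.876 for Il1rl1 (A_55_P2027737), -0.382 for Il1rn (A_55_P1962400) and -0.763 for Il18. In between lay Il1rap A_55_P2807476 (0.524), which was lower without overlap, Il18r1 A_51_P505617 (0.281) and Il1rap A_52_P467232 (-0.233). Among 17117 probes measured on all 6 arrays, the named genes most like Il1b were Nudt10 (0.996), Rcn3 (0.995), Zcchc3, Fhl2 and Mab21l1 (0.994 each), and 238 probes had an r above 0.95. These values describe 6 arrays that share a group difference and the low knockout 1.

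Around the 10 genes, 72 further genes of the pathway were examined, 1 probe per gene. Of 55 tested, limma called 7, 4 lower and 3 higher, or 12.7%, against 3.97% of all tested probes. Among the 4 lower, Il18rap and Csf3 were well above background on no knockout array and entered the test through control signal alone. The median change of the 55 was -0.23, with 33 lower. The count rested on single arrays: it was 1 without control 2 or control 3, 3 without knockout 1 and 0 without knockout 3.

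Of 11 other family members, 5 could be tested and 3 were called, against 3.97% of all tested probes. Il18bp, the secreted protein that neutralises IL-18, read 0.42, 0.06 and 0.09 in controls and 1.58, 1.17 and 1.11 in knockouts. It rose by 1.10 (SE 0.20, limma, adjusted p = 0.0419). Sigirr, an inhibitory receptor of the family expressed in colonic epithelium, read -1.62, -1.81 and -1.57 in controls and -0.41, -0.81 and -0.84 in knockouts and rose by 0.98 (SE 0.18, limma, adjusted p = 0.0430). Both soluble or inhibitory members were thus on the same side as Il18, and neither group overlapped. The third was Il18rap, given with the receptor cluster, which was not well above background in any knockout. The IL-36 cytokines, Il1f10 and Il1rapl2 could not be tested.

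Of 12 genes of the inflammasomes, which activate caspase-1 to mature IL-1β and IL-18, 11 were tested, 8 were higher and 1 was called, against 3.97% of all tested probes, with a median of 0.94. Nlrp1b, an inflammasome sensor, rose by 2.11 (SE 0.41, limma, adjusted p = 0.0468). Nlrp6, an epithelial sensor, differed by 3.37 (SE 0.87, adjusted p = 0.0738), Nlrc4 by 1.24 (adjusted p = 0.0706) and Pycard, the adaptor ASC, by 1.00 (adjusted p = 0.158), none of them past the threshold. Mefv, which encodes pyrin, differed by -1.20 (adjusted p = 0.182), and Nlrp3, the myeloid sensor, by -0.08. With outlier spots kept, 12 were tested and 3 were called, against 4.85% of all probes tested this way. Besides Nlrp1b these were Gsdmd (1.04, limma, adjusted p = 0.0443) and Aim2 (1.00, limma, adjusted p = 0.0490), both higher. Another Gsdmd probe was called with outlier spots missing, where the brightest was not (limma, adjusted p = 0.0773). The epithelial marker sums given with Il18 were higher on the same arrays, and their part in these values was not tested.

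Among 16 genes of the signalling chain behind the receptors, 15 were tested and their median was -0.09. Irak3, which encodes IRAK-M, a brake on MYD88 signalling, read -0.41, -0.70 and -0.999 in controls and -3.34, -2.35 and -2.92 in knockouts and fell by 2.16 (SE 0.29, limma, adjusted p = 0.0273). It was the single call among the 15, a share of the same order as the 3.97% of all tested probes. The adaptor Myd88 differed by -0.24 (adjusted p = 0.403), Irak1 by -0.29, Nfkb1 by -0.25 and Tab1 by 0.32.

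Of 23 genes that IL-1 is known to induce in stromal and epithelial cells, 19 were tested, 15 were lower and 2 were called, against 3.97% of all tested probes, with a median of -1.82. Csf3, which encodes the neutrophil growth factor G-CSF, was called lower (limma, adjusted p = 0.0169) and stood well above background in none of the knockouts. Csf3 entered the test through its control signal alone, so the call used knockout values that were not well above background. It was at least 14.3-fold lower from the 2 usable control spots, and at least 20.1-fold lower with the outlier spot of control 1 included (adjusted p = 0.0107). Lcn2, the iron-binding antimicrobial lipocalin, read 2.73, 2.35 and 2.27 in controls and 0.19, 1.09 and 0.60 in knockouts and fell by 1.82 (SE 0.26, adjusted p = 0.0302).

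The 4 other genes with the largest differences in this list missed the threshold. Cxcl2, a neutrophil chemokine, differed by -4.58 (SE 1.16, adjusted p = 0.0715), Il11 by -4.27 (SE 1.29, adjusted p = 0.124), Il6 by -4.05 (SE 0.99, adjusted p = 0.0671) and Mmp10 by -3.62 (SE 0.99, adjusted p = 0.0820). Knockout 1 was the lowest array for all 4, and Cxcl2 and Il6 were well above background on 2 of the 3 knockout arrays. The list also held 4 higher genes, of which Nos2 lay closest to the threshold. It differed by 1.36 (SE 0.28, limma, adjusted p = 0.0501, or 0.0466 with outlier spots kept).

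Of 10 products of cells that answer IL-33 or IL-18, 5 were tested and none was called. Il10, well above background on 1 of the 3 knockout arrays, differed by -2.06 (SE 0.48, adjusted p = 0.0634), Areg, the repair factor amphiregulin, by 0.91 (adjusted p = 0.332) and Ifng by 0.39 (adjusted p = 0.439). The type 2 cytokines Il4, Il5, Il9 and Il13 could not be tested, so the products most often measured downstream of IL-33 gave no value here.

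**Figure D5:**
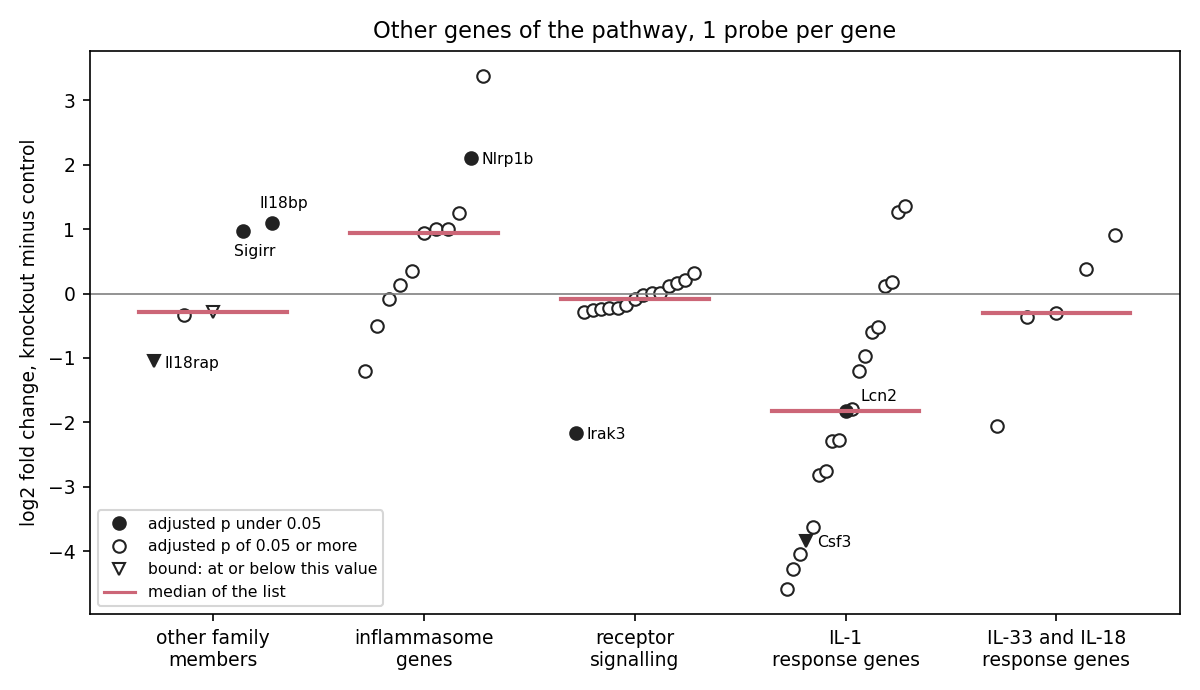
Log2 fold change, knockout minus control, of the 55 tested pathway genes, 1 probe per gene, in 5 lists, with a bar at each list's median; filled symbols have an adjusted p under 0.05, and triangles are genes not well above background on any knockout array, drawn at their bound. The IL-1 response genes centre on -1.82 and the inflammasome genes on 0.94, while the signalling genes lie near 0 apart from Irak3 at -2.16.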

How the data were processed

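One single-colour Agilent array was read per mouse, for 3 control and 3 Islr knockout mice. Feature Extraction 11.5.1.1 on design 074809 wrote the files, per the file headers, while the submitters' processing notes give version 10.7. The labels name Cy3 and a green column, but each file held the red channel, which was used. The deposited processed signal is an intensity after the authors' spatial detrending and background subtraction, unscaled between arrays, as per the file headers. A deposited value table, likewise of intensity, matched the scanner values (log2 r of at least 0.999999). No spot was saturated. Probes were named through the RefSeq annotation of GRCm38.p6, and 33767 of 56605 matched a gene.

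The signal was converted to log2 and the 75th percentile over 59305 non-control spots was subtracted. Outlier spots (non-uniform or population) were treated as missing. Testing required signal well above background on the 3 arrays of either group and 2 or more usable values per group, which 35351 probes met. Groups were compared two-sided in R 4.3.3 by limma 3.58.1 (lmFit, eBayes), and p-values were adjusted by Benjamini-Hochberg at 5%. The code was tested on simulated data. No 2 arrays were identical, and p-values measure the spread between these mice.

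The 10 genes and all lists were chosen with earlier results of these data known. Every probe of the 10 genes was named. Of the other lists, called genes and up to 4 others with the largest change per list were named, plus defining markers, the 5 genes most like Il1b and chromosomal neighbours. Nlrp3, Gsdmd, Aim2 and Nos2 were named after their values were seen. A list gene was read by its brightest tested probe. Alternatives were another background correction, quantile or median scaling, outlier spots kept, no filter on dim probes, array weights, the value table, the mean over a gene's probes, and leaving out each array.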

Additional observations from a re-analysis of the deposited data

How the results depend on the processing

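Over all tested probes, limma called 1403. It called 2773 with normexp and quantile normalisation, 2185 with quantile normalisation alone, 2249 with array median scaling, 484 with no filter on dim probes and 9292 with array weights, and 40 to 2114 when each array was left out. The 2 called probes of the 10 genes became 7 with normexp and quantile normalisation and 4 with median scaling. They became 5 with outlier spots kept and 9 with array weights. When each array was left out they became 0 to 3, the 0 being without knockout 3. Each of these counts except the 0 includes Il1rl1 A_55_P2027731, whose call adds nothing to its bound. The 7 called pathway genes became 13, 12 and 22 with normexp and quantile normalisation, median scaling and array weights, and 0 to 9 when each array was left out. Of the members' fold changes, reversals were seen for Il1rap A_52_P467232 (-0.17 without control 3, and -0.17 to 0.32 over arrays left out) and Il18r1 A_51_P505617 (0.022 with quantile normalisation, 0.24 without control 2, 0.13 without knockout 1, and -0.30 to 0.24 over arrays left out), at both treatments of outlier spots. The cause was not tested. All other fold changes of member probes kept their direction under every alternative that could test them. Counted over member probes and settings, an alternative put a value past the threshold 22 times and took one back 16 times. Signal over background limits Il1a, Il1rl1 A_51_P339793, Il1rl1 A_55_P2027731, Il1rap A_52_P207374 and Il18r1 A_55_P2092492. With no filter on dim probes, the last 2 differed by -1.28 (adjusted p = 0.0422) and -1.18 (adjusted p = 0.0989). No paired analysis was possible because the labels give no replicate numbers that the groups share.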
